A study of Mus musculus with 12 samples.

Results

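The genes that encode the proteasome were examined in B cells purified from the Peyer's patches (PP), the lymphoid follicles of the small intestine, of sham controls and stroke mice. Members were all genes whose symbol is Psm followed by a letter from a to g and a number, which gave 48 genes of the 36175 in the deposited table. The 7 other Psm symbols, pseudogene copies, the retrogene Psme2b and the unrelated Psmc3ip, fell outside this rule. The study used male C57BL/6JHsd mice aged 10 to 12 weeks. The 6 stroke mice, labelled brain injury, had the middle cerebral artery occluded for 1 h, followed by reperfusion, and the 6 sham controls underwent the sham procedure. PP B cells were taken 18 h after surgery with magnetic beads, and the total RNA of each mouse was sequenced in bulk. The cells are those that remained in the PP at that time. Per the methods, a B cell kit whose product held small numbers of epithelial and endothelial cells was followed by CD45 beads to raise the purity.

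The proteasome is the main protease of the cytosol and nucleus and degrades proteins tagged with ubiquitin. Its 20S core is a barrel of alpha and beta rings whose catalytic beta subunits face the inside, and the 19S particle binds, unfolds and feeds in the substrate. In lymphocytes and in cells exposed to interferon, the immunoproteasome subunits Psmb8, Psmb9 and Psmb10 take the places of the constitutive catalytic subunits Psmb5, Psmb6 and Psmb7. This exchange alters the peptides offered to MHC class I, and antibody-producing B cells are known for a heavy load on protein degradation.

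The values are normalized TPM per gene, a signal scaled by transcript length, so levels of different genes can be set side by side. Column totals ranged from 559570 in sham control 6 to 1404340 in sham control 1, and the read depth behind them is not known. The 6 B cell markers summed to between 1491 and 2606 per mouse, and none of them was at 0. T cell markers summed to between 63.4 and 160 and neutrophil markers to between 3.75 and 8.52, with 4 of the 6 neutrophil markers at 0 in some mouse. Intestinal epithelial markers ranged from 34.0 to 1563 in sham controls and from 30.9 to 820 in stroke mice, plasma cell markers from 295 to 1486 and from 372 to 1085, and macrophage and dendritic cell markers from 47.5 to 302 and from 48.5 to 164. The library of sham control 6 stood apart, and it held the lowest plasma cell and macrophage sums of all 12 mice and the lowest epithelial sum of the sham controls. Endothelial markers ranged from 83.5 to 110, with 1 of the 5, Tek, at 0 in some mouse, germinal centre B cell markers from 131 to 295, and markers of dividing cells from 227 to 519. Of the 55 genes on these 9 marker lists, 43 were abundant enough to be tested, 1 of 6 for neutrophils and 2 of 5 for endothelium, and none of the 43 had an unadjusted p under 0.05 between groups, and the part of these sums in the member values was not tested.

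Of the 48 members, 47 reached a normalized TPM of 1 in all 12 mice and were tested with limma on log2(value + 0.5). The exception was Psma8, the testis form of an alpha subunit, which lay between 0 and 1.80. Stroke mice and sham controls did not differ in any tested member after Benjamini-Hochberg adjustment at a threshold of 0.05, and 0 of the 47 had an unadjusted p under 0.05 in either direction. Over all 12590 genes tested, 6.12% had an unadjusted p under that threshold, 1.69% lower and 4.42% higher in stroke mice, and 0% passed after adjustment. No member had groups that did not overlap, compared with 0.437% of all genes. The smallest adjusted p of a member was 0.791, for Psme2. The log2 fold change of stroke mice relative to sham controls was below 0 in 35 members and above 0 in 12, whereas 48.6% of all genes were below 0. Its median was -0.11 over the members and 0.01 over all genes. When each mouse was rescaled to the same total, the member median became 0.01 and that of all genes 0.13, and 19 of 47 members were below 0. The distance of the member median from that of all genes was therefore -0.12 on the deposited scale and -0.11 on the rescaled one. Of the 47 intervals at 95% confidence, 2 reached a change of 2-fold, those of Psma5 and Psmb5. In bulk RNA, fewer cells of a type and less RNA per cell cannot be told apart.

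**Figure D1:**
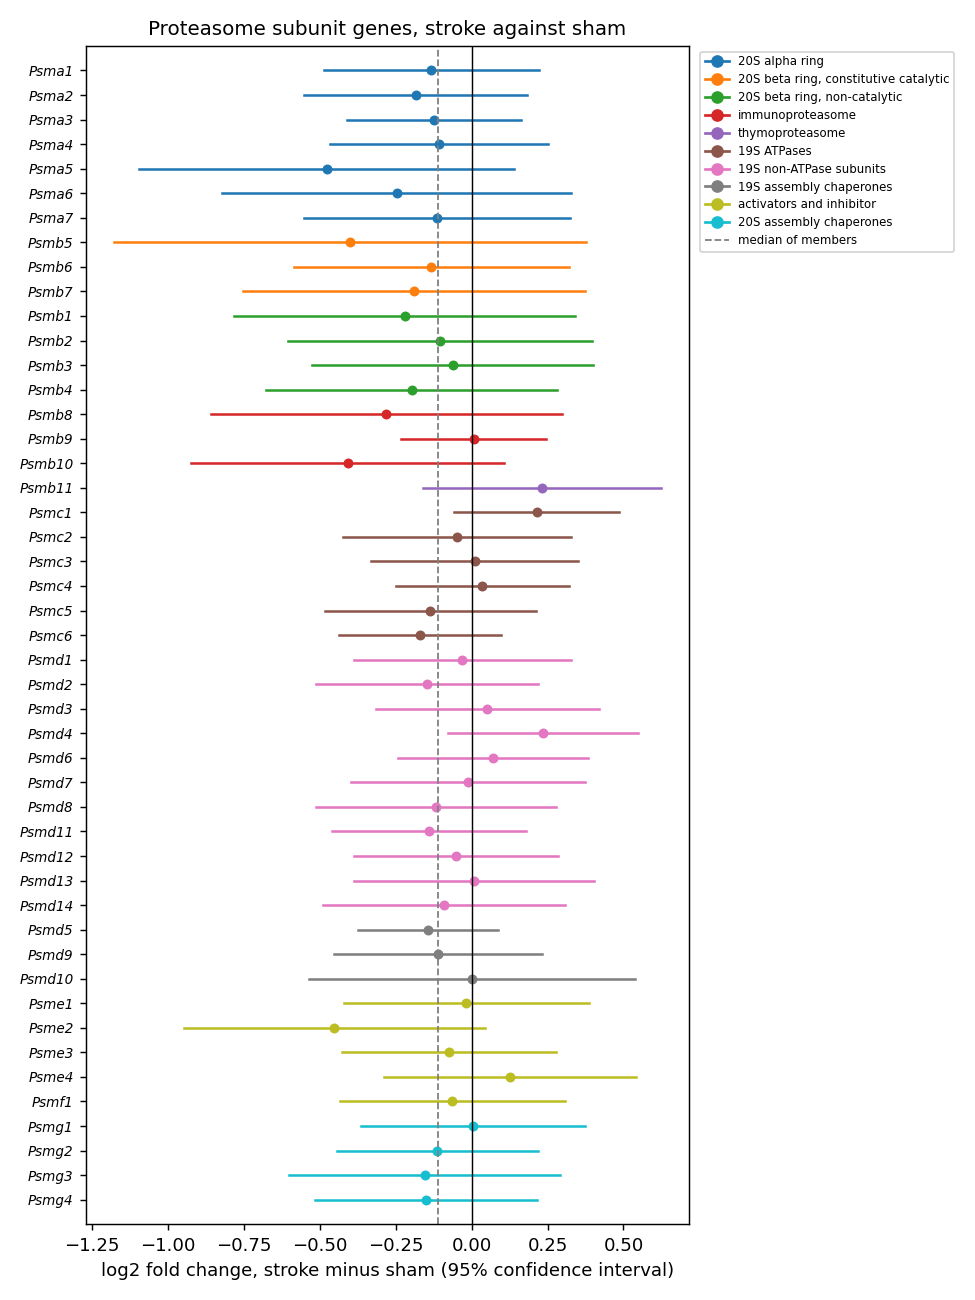
Log2 fold change of stroke mice relative to sham controls on the log2(value + 0.5) scale (horizontal axis) for the 47 tested members, ordered by their place in the proteasome, with bars for the 95% interval from limma and n = 6 mice in each group. All 47 intervals include 0, and the points run from -0.48 (Psma5) to 0.23 (Psmd4), with 35 below 0 on this scale and 19 below 0 when each mouse is rescaled to the same total.

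The most abundant member was Psmb8, the immunoproteasome subunit with chymotrypsin-like activity, with a mean of 237 over the 12 mice. The gene lies on chr17:34197721-34201454 (GRCm38). Its normalized TPM was 111 in the lowest, 268 in the median and 412 in the highest sham control, and 134, 214 and 263 in stroke mice. All stroke mice lay within the range of the sham controls, and sham control 6 was the lowest of all. The log2 fold change of Psmb8 was -0.28 ± 0.27 (SE, n = 6 per group, 95% interval -0.86 to 0.30, adjusted p = 0.855, limma). Psmb10, the trypsin-like immunoproteasome subunit on chr8:105935735-105938444, was measured at 29.3, 58.2 and 68.2 in the lowest, median and highest sham control. In stroke mice the corresponding values were 22.6, 42.2 and 57.4, with 5 of 6 mice below the sham mean of 54.6 ± 14.2 (SD) and overlap between the groups. Its log2 fold change was -0.41 ± 0.24 (SE, 95% interval -0.92 to 0.11, adjusted p = 0.793, limma).

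Psmb9, the third immunoproteasome subunit, on chr17:34181987-34187764, varied little between mice on the deposited scale. Sham controls ranged from 41.5 to 47.7 with a median of 45.9, and stroke mice from 39.3 to 57.4 with a median of 44.2. The SD of Psmb9 over the 12 mice was 0.14 on the log2 scale, which placed it at the 3.97th percentile of all tested genes. Its log2 fold change was 0.01 ± 0.11 (SE, 95% interval -0.23 to 0.24, adjusted p = 0.994, limma), and its sign varied when single mice were left out. Sham control 6, low for Psmb8 and Psmb10, was at 44.8 for Psmb9. Psmb9 is transcribed away from Tap1, which encodes a subunit of the peptide transporter of the MHC class I pathway, and the RefSeq starts of both genes are 226 bases apart. Of the 31-base words in Psmb9 transcripts, 10.8% also occur in Tap1 transcripts. Tap1 had an SD over mice of 0.13 and Tap2, the other transporter subunit, of 0.07, also on the log2 scale. When each mouse was rescaled to the same total, these genes were not flat. Psmb9 then ran from 28.0 in sham control 1 to 74.5 in sham control 6, and the SD over mice was 0.36 for Psmb9, 0.30 for Tap1 and 0.37 for Tap2. The window from 250 bases before to 50 after the Psmb9 start is shown because it is the region between the divergent pair. It reads as follows on the minus strand of chr17:34187281-34187580 (RefSeq, GRCm38.p6), with a GC box (GGGCGG) and a reversed CCAAT box (ATTGG) in capitals.
Psmb9: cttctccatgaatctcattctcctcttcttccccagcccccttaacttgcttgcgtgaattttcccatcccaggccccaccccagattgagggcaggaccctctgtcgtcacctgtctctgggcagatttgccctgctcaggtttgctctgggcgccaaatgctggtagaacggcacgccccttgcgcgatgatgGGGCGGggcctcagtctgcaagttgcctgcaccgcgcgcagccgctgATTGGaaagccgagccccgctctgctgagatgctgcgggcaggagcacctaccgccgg

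**Figure D2:**
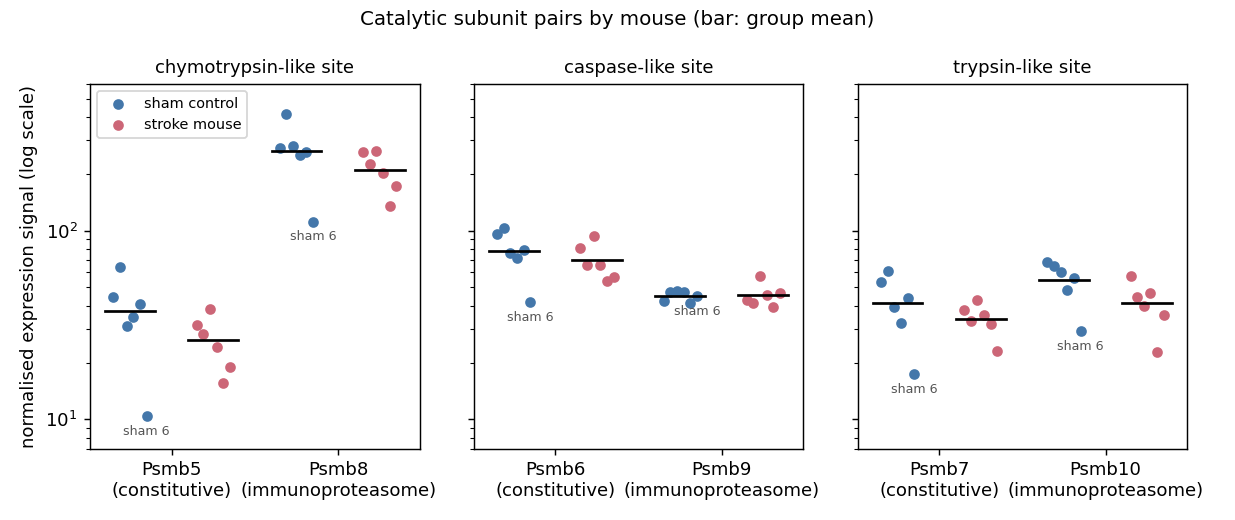
Normalized TPM on a log axis of the immunoproteasome subunits Psmb8, Psmb9 and Psmb10 and of their constitutive counterparts Psmb5, Psmb6 and Psmb7 in the 6 sham controls and 6 stroke mice, 1 point per mouse with a bar at the group mean. The groups overlap in all 6 genes, sham control 6 (marked) is the lowest mouse for Psmb5, Psmb6, Psmb7 and Psmb8, and Psmb9 lies between 39.3 and 57.4 throughout.

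Among the constitutive catalytic subunits, Psmb5 has the chymotrypsin-like, Psmb6 the caspase-like and Psmb7 the trypsin-like activity. Psmb5 (chr14:54614119-54618022) was at 10.4, 37.9 and 64.5 in the lowest, median and highest sham control, and at 15.7, 26.2 and 38.5 in stroke mice. It varied most of the 47 tested members, 6.20-fold from the lowest to the highest mouse, and both extremes were sham controls. Its log2 fold change was -0.40 ± 0.36 (SE, 95% interval -1.18 to 0.38, adjusted p = 0.847, limma). Psmb6 (chr11:70525367-70527858) averaged 77.8 ± 21.4 in sham controls and 69.6 ± 15.0 in stroke mice (SD, n = 6 each), with a log2 fold change of -0.13 ± 0.21 (SE). Psmb7 (chr2:38588036-38644087) averaged 41.1 ± 15.4 and 34.1 ± 6.65 (SD, n = 6 each), with a log2 fold change of -0.19 ± 0.26 (SE). For each of these genes the stroke mice lay inside the range of the sham controls.

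Members differ in how much sequence they share with other genes. This was measured as the share of 31-base words in a gene's transcripts that also occur in transcripts of other genes. It was above 0 for 28 of the 48 members and above 50% for 4 of them: 71.7% for Psmb5, 66.8% for Psmb3, 66.5% for Psma5 and 62.6% for Psme2. The main copies of the first 3 are pseudogenes that were listed at no more than 0.136, 0.263 and 0.132 in any mouse, whereas the copy of Psme2 was abundant, as described further on. These shares are not the shares of reads that a quantification tool must divide. How uncertain the values of Psmb5, Psmb3, Psma5 and Psme2 are was not measured.

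The promoters of Psmb5 and Psmb6 are shown because the transcription factor Nfe2l1, which raises proteasome gene expression when the protease is inhibited, binds antioxidant response elements, and both windows hold the letters of such an element. Letter patterns were searched on both strands in the RefSeq windows of 300 bases, which were found for 40 of the 48 members as 43 windows, among 32851 windows in all. The antioxidant response element, TGACNNNGC, was present in 6 member windows (14.0%, compared with 12.4% of all windows), those of Psmb5, Psmb6, Psmc6, Psmd9, Psmd12 and Psme4. The element starts 47 bases before the Psmb5 start and 9 bases before the Psmb6 start. The Psmb5 window lies on the minus strand of chr14:54617946-54618245 and the Psmb6 window on the plus strand of chr11:70525107-70525406 (RefSeq, GRCm38.p6), with the element in capitals.
Psmb5: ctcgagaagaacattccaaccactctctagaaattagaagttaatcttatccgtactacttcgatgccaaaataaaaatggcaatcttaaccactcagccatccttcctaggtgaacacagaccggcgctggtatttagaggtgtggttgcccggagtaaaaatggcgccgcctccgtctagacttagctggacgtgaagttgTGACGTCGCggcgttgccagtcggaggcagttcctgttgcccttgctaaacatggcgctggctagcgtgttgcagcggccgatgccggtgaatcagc
Psmb6: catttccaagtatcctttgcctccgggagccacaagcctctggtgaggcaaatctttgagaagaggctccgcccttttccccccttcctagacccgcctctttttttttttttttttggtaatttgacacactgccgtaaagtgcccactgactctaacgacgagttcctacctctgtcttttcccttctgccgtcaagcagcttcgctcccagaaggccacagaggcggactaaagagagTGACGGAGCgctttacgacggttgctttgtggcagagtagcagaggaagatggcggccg

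The same search found the CCAAT box in 14 member windows (32.6%, compared with 37.4% of all) and the GC box GGGCGG in 24 (55.8%, compared with 35.7%). The GC box letters can overlap other patterns. The log2 fold changes of the 6 genes with an antioxidant response element were -0.40 (Psmb5), -0.13 (Psmb6), -0.17 (Psmc6), -0.11 (Psmd9), -0.05 (Psmd12) and 0.13 (Psme4), and none passed the test. Nfe2l1 itself was at 31.9, 49.7 and 63.8 in the lowest, median and highest sham control and at 32.2, 41.4 and 44.5 in stroke mice. All 6 stroke mice lay below the sham mean of 47.9 for Nfe2l1, and the log2 fold change was -0.25 ± 0.17 (SE, adjusted p = 0.814, limma).

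The ratio of an immunoproteasome subunit to its constitutive counterpart was taken within each mouse as a difference of log2(value + 0.5), which removes most of the scale of that mouse. The pseudocount of 0.5 lowers the ratio slightly where Psmb5 is low, as in sham control 6. Psmb8 exceeded Psmb5 in every mouse, 7.36-fold in sham controls and 8.002-fold in stroke mice as geometric means with the pseudocount included. The log2 ratio was 2.62, 2.75 and 3.36 in the lowest, median and highest sham control and 2.75, 3.03 and 3.16 in stroke mice. The difference of the means was 0.12 (95% interval -0.18 to 0.42, exact two-sided permutation p = 0.385). Psmb9 was below Psmb6 in 11 of the 12 mice, with the ratio at 0.604 in sham controls and 0.665 in stroke mice, and sham control 6 was the exception at 1.07. This log2 ratio was -1.17, -0.79 and 0.10 in the lowest, median and highest sham control and -0.91, -0.59 and -0.28 in stroke mice, a difference of 0.14 (95% interval -0.33 to 0.61, exact two-sided permutation p = 0.530). Psmb10 was 1.37-fold of Psmb7 in sham controls and 1.18-fold in stroke mice. The log2 ratio was 0.09, 0.47 and 0.74 in the lowest, median and highest sham control and -0.48, 0.40 and 0.62 in stroke mice, where mice 3 and 5 were below 0. The difference was -0.22 (95% interval -0.67 to 0.24, exact two-sided permutation p = 0.329). After Benjamini-Hochberg adjustment over the 3 ratios, each p was 0.530. Without sham control 6, the differences for Psmb8 to Psmb5 and Psmb9 to Psmb6 were 0.22 (exact permutation p = 0.0758) and 0.30 (exact permutation p = 0.0671), and without stroke mouse 5 that for Psmb10 to Psmb7 was -0.07 (exact permutation p = 0.654).

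All 14 tested subunits of the constitutive 20S core had a log2 fold change below 0 on the deposited scale, and 9 of them when each mouse was rescaled to the same total. None of them passed the test. The median was -0.16 on the deposited scale, compared with 0.01 over all genes, and -0.03 on the rescaled one, compared with 0.13. Without sham control 2 the core median was -0.07, with 11 of the 14 subunits below 0, and without sham control 6 it was -0.30. Without stroke mouse 6, in which 30060 genes were above 0 compared with 20626 to 23947 in the other 11 mice, it was -0.09. The alpha subunits form the outer rings and the gate of the barrel. They ranged in level from 33.3 for Psma5 to 122 for Psma7, and in log2 fold change from -0.48 for Psma5 to -0.11 for Psma4. Psma5 was at 17.2, 37.1 and 57.4 in the lowest, median and highest sham control and at 15.2, 28.2 and 39.5 in stroke mice. Of the stroke mice, 5 lay below the sham mean of 39.2 for Psma5, and the log2 fold change was -0.48 ± 0.29 (SE, 95% interval -1.09 to 0.14, adjusted p = 0.793, limma). Psma4 averaged 91.0 ± 23.7 in sham controls and 82.5 ± 8.73 in stroke mice (SD, n = 6 each). The non-catalytic beta subunits Psmb1, Psmb2, Psmb3 and Psmb4 were close to each other in level, from 38.9 to 58.3. Their log2 fold changes ran from -0.22 ± 0.26 for Psmb1 to -0.06 ± 0.21 for Psmb3 (SE). Psmb11, the catalytic subunit of the thymoproteasome of thymic cortical epithelium, was close to the filter with a mean of 1.73, and its log2 fold change was 0.23 ± 0.18 (SE, adjusted p = 0.827, limma).

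The 17 tested subunits of the 19S particle were at levels from 30.6 to 117, a range of 3.84-fold, similar in width to the 3.82-fold range of the 20S core from 31.9 to 122. Of these, 10 had a log2 fold change below 0 and 7 above 0, with a median of -0.03 on the deposited scale, whereas 4 were below 0 with a median of 0.10 when each mouse was rescaled to the same total. Without sham control 2 the median of the 19S subunits was 0.06, and without sham control 6 it was -0.15. The ATPases Psmc1 to Psmc6 form the ring that unfolds the substrate, and 3 of 6 were below 0. Psmc1 was at 89.7, 104 and 139 in the lowest, median and highest sham control and at 110, 125 and 144 in stroke mice. All 6 stroke mice lay above the sham mean of 109 for Psmc1 and the groups overlapped, with a log2 fold change of 0.21 ± 0.13 (SE, 95% interval -0.06 to 0.49, adjusted p = 0.793, limma). Psmc6 went from 79.4 ± 11.1 to 70.4 ± 8.38 (SD, n = 6 each), a log2 fold change of -0.17 ± 0.12 (SE).

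Among the 11 non-ATPase subunits, 7 were below 0. Psmd4, a receptor for ubiquitin chains, was at 70.1, 105 and 123 in the lowest, median and highest sham control and at 101, 119 and 147 in stroke mice. Of the stroke mice, 5 lay above the sham mean of 101.8 for Psmd4 and stroke mouse 4 just below it at 101.4, and the log2 fold change was 0.23 ± 0.14 (SE, 95% interval -0.08 to 0.55, adjusted p = 0.793, limma). The log2 fold change of Psmd4 was 0.13 without sham control 6 and 0.29 without sham control 2. Psmd2, a large scaffold subunit of the base, averaged 62.3 ± 14.9 in sham controls and 54.9 ± 5.30 in stroke mice (SD, n = 6 each), a log2 fold change of -0.15 ± 0.17 (SE). Psmd14, the deubiquitinase that removes the chain from the substrate, averaged 69.7 ± 16.6 and 65.5 ± 15.9 (SD, n = 6 each). Psmd12 had the lowest level of the 19S subunits. The Psmd12 window is shown because it holds both an antioxidant response element, on the reverse strand 247 bases before the start, and the ETS site CCGGAAGT, also reversed, 18 bases before it. The ETS site occurred in 10 of the 43 member windows (23.3%, 9 genes), compared with 3.89% of all windows, and the other 8 genes were Psma6, Psmc1, Psmc2, Psmd6, Psmd13, Psme3, Psme4 and Psmg3. The window lies on the plus strand of chr11:107479278-107479577 (RefSeq, GRCm38.p6), and capitals mark both patterns.
Psmd12: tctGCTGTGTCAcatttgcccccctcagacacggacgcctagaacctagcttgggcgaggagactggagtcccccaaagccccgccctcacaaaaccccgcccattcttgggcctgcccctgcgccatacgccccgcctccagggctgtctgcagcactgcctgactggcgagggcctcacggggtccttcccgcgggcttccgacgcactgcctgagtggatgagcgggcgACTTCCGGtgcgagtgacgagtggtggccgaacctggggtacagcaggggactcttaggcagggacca

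Assembly of the particles needs chaperones that leave the finished complex. The 19S chaperones Psmd5, Psmd9 and Psmd10 were at 15.6, 13.7 and 4.93 as means over the 12 mice. Psmd5 ranged from 14.4 to 20.1 in sham controls and from 13.4 to 16.0 in stroke mice, and all 6 stroke mice lay below the sham mean of 16.4, with a log2 fold change of -0.14 ± 0.11 (SE, 95% interval -0.37 to 0.09, adjusted p = 0.821, limma). Psmd10 had a log2 fold change of 0.00 ± 0.25 (SE). The 20S chaperones Psmg1, Psmg2, Psmg3 and Psmg4 were at levels from 11.6 to 38.4, with log2 fold changes from -0.15 ± 0.21 for Psmg3 to 0.00 ± 0.17 for Psmg1 (SE). Pomp, the maturation protein that is degraded when the 20S core is complete, was at 21.9, 58.3 and 79.7 in the lowest, median and highest sham control and at 46.7, 53.0 and 68.4 in stroke mice. The groups overlapped for Pomp, and its log2 fold change was 0.02 ± 0.26 (SE).

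Activators open the gate of the core in place of the 19S particle. Psme1 and Psme2 encode the alpha and beta chains of the interferon-inducible activator PA28, Psme3 its nuclear relative PA28 gamma, Psme4 the nuclear activator PA200, and Psmf1 the inhibitor PI31. Psme1 was the second most abundant member with a mean of 216. It ranged from 139 to 299.9 in sham controls, with a median of 217, and from 161 to 265 in stroke mice, with a median of 207. The groups overlapped fully for Psme1, with a log2 fold change of -0.02 ± 0.19 (SE) that was above 0 when each mouse was rescaled to the same total. The Psme1 window is shown because its pattern of an interferon-stimulated response element, GAAA and GAAA with 2 bases between them, lies next to the start, 9 bases after it on the reverse strand. This pattern was found in 5 member windows (11.6%, compared with 3.44% of all windows), the others being those of Psmb3, Psmd4, Psmd9 and Psmg4. The window lies on the plus strand of chr14:55578244-55578543 (RefSeq, GRCm38.p6), with the element in capitals.
Psme1: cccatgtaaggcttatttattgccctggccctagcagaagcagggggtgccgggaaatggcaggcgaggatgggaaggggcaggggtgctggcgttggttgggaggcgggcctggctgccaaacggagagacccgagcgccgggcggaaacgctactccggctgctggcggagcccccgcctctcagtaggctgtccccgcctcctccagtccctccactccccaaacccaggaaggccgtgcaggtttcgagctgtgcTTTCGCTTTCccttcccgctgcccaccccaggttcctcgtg

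Psme2 (chr14:55587441-55591113) had the smallest unadjusted p of the members, 0.0706. Its normalized TPM was 73.7, 107 and 156 in the lowest, median and highest sham control and 42.0, 88.6 and 104 in stroke mice. All 6 stroke mice lay below the sham mean of 114 ± 29.3 (SD) for Psme2, and stroke mouse 5 was far below the others. The log2 fold change was -0.45 ± 0.23 (SE, n = 6 per group, 95% interval -0.95 to 0.04, adjusted p = 0.791, limma). Without stroke mouse 5 it was -0.26. The retrogene Psme2b shares most of its sequence with Psme2 and was measured at 66.2 to 111. The sum of Psme2 and Psme2b, an alternative chosen after seeing the data, averaged 204 ± 31.9 in sham controls and 177 ± 35.8 in stroke mice (SD, n = 6 each), a log2 fold change of -0.22 ± 0.17 (SE, adjusted p = 0.826, limma). Psme3 averaged 64.4 ± 13.7 and 60.7 ± 10.2 (SD, n = 6 each), with a log2 fold change of -0.07 ± 0.16 (SE). Psme4 had a log2 fold change of 0.13 ± 0.19 (SE), and stroke mouse 5 held its highest value, 72.1. Without that mouse the log2 fold change of Psme4 was -0.04. Psmf1 averaged 19.1 ± 4.11 and 18.1 ± 3.67 (SD, n = 6 each), with a log2 fold change of -0.06 ± 0.17 (SE).

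Members tended to be high or low together in the same mice. Sham control 6 was the lowest of the 12 mice for 31 of the 47 tested members (66.0%), compared with 27.2% of all genes, and sham control 2 was the highest for 30 of them (63.8%), compared with 20.05% of all genes. The median deviation of the members from their mean over mice was -0.58 in sham control 6 and 0.41 in sham control 2 on the log2 scale, and between -0.21 and 0.23 in the stroke mice. The constitutive catalytic subunits deviated most, with medians of -1.03 in sham control 6 and 0.76 in sham control 2. The 19S ATPases deviated less, with medians of -0.41 and 0.38. As a share of the column total, the members took 0.320% in sham control 6, the highest of all mice, 0.273% in sham control 2 and 0.227% in sham control 1, the lowest. The order of these mice thus depends on whether the level or the share of the total is read. The SD over the 12 mice ran from 0.14 (Psmb9) to 0.70 (Psmb5), with a median of 0.29 over the members and 0.31 over all genes on the log2 scale.

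**Figure D3:**
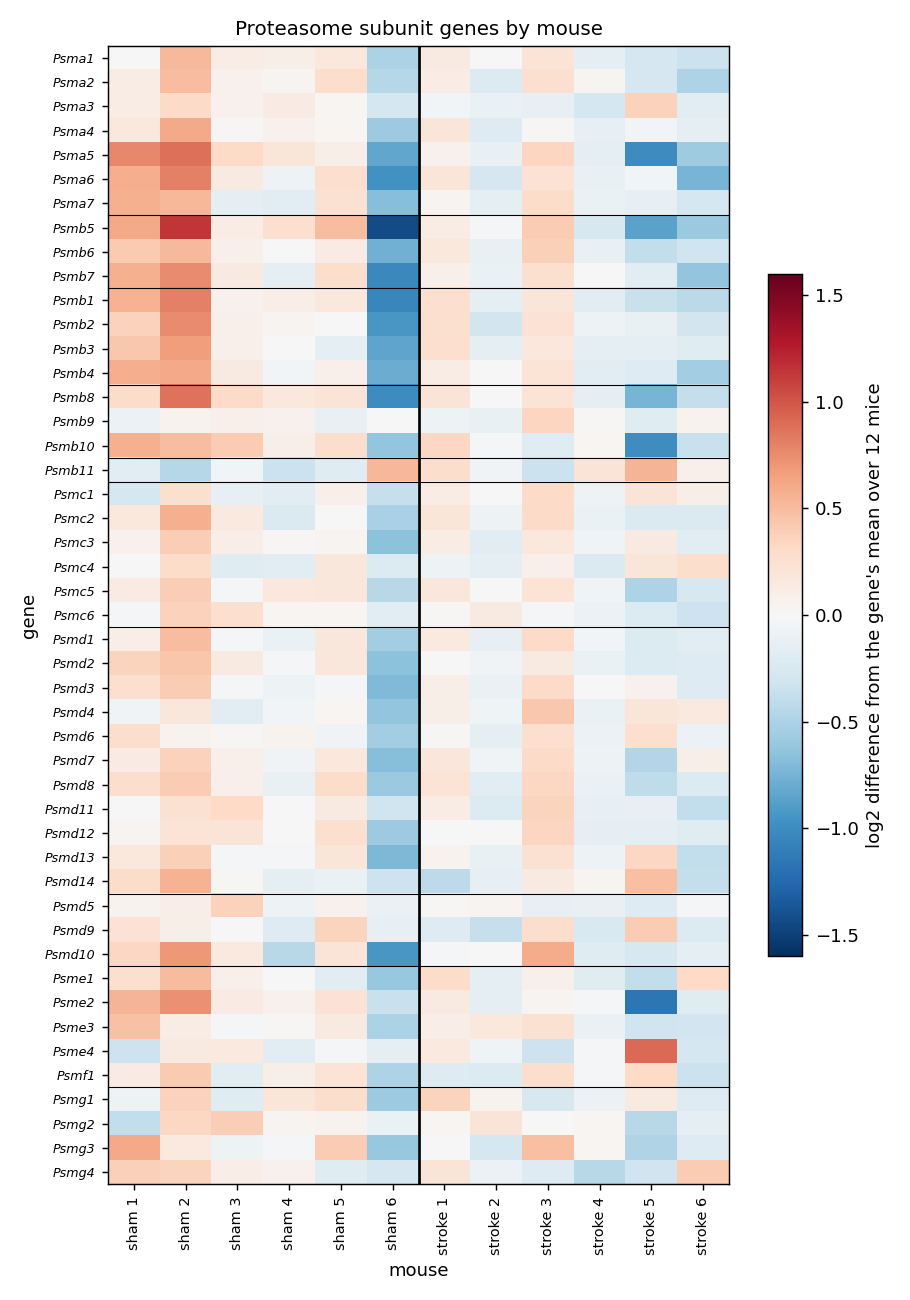
Deviation of each tested member (vertical axis, ordered by its place in the proteasome) from its own mean over the 12 mice, on the log2(value + 0.5) scale in colour, for each sham control and stroke mouse (horizontal axis). The column of sham control 6 is low for nearly every member, with a median of -0.58 and with Psmb11 as an exception, that of sham control 2 is high, with a median of 0.41, and the Psmb9 line is pale throughout on this scale.

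The result was sensitive to sham control 6. When it was left out, 10 members were lower in stroke mice at an unadjusted p under 0.05 and 1 was higher, compared with 9.20% and 7.44% of all genes in that fit, and 0 members passed at an adjusted p under 0.05 (smallest adjusted p = 0.251, limma). The lower ones were the core subunits Psma5, Psma6, Psmb1, Psmb4, Psmb5 and Psmb7, the immunoproteasome subunits Psmb8 and Psmb10, the 19S subunit Psmd2 and the activator subunit Psme2, and the higher one was Psmb11. In that fit the log2 fold change was -0.73 ± 0.24 for Psmb5, -0.69 ± 0.23 for Psma5, -0.57 ± 0.20 for Psmb10, -0.57 ± 0.22 for Psme2 and -0.51 ± 0.19 for Psmb8 (SE). It was -0.45 ± 0.18 for Psmb1, -0.41 ± 0.19 for Psmb7 and -0.29 ± 0.12 for Psmd2 (SE). The member median without sham control 6 was -0.19 and that of all genes -0.02. Other mice moved the same values towards 0. Without sham control 2 the log2 fold change was -0.21 for Psmb5 and -0.13 for Psmb8, and without stroke mouse 5 it was -0.32 for Psma5, -0.25 for Psmb10 and -0.26 for Psme2. For Psmb1, Psmb7 and Psmd2 it was -0.08, -0.06 and -0.07 without sham control 2. Without sham control 2 the member median was -0.04, with 26 of 47 members below 0 and 1 member, Psmc1, higher at an unadjusted p under 0.05, compared with 3.34% of all genes. Without stroke mouse 1, 1 member, Psme2, was lower, compared with 2.38% of all genes, and without any other single mouse none was lower or higher at that threshold.

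**Figure D4:**
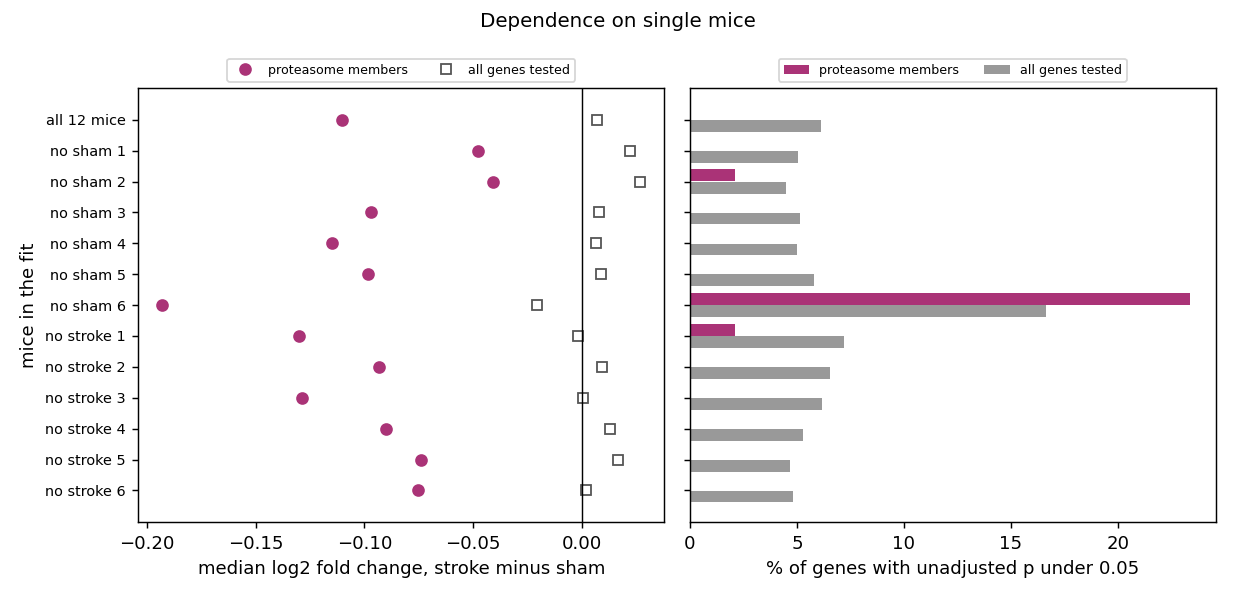
Median log2 fold change of stroke mice relative to sham controls on the deposited scale (left) and percent of genes with an unadjusted p under 0.05 in either direction (right), for the 47 members and for all 12590 genes tested, in fits to all 12 mice or to 11 of them (vertical axis). The member median lies below that of all genes in each case, and the longest bar for the members, without sham control 6, stands for 10 lower and 1 higher member.

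Genes outside the family that act on the proteasome, its products or its induction were taken from 3 lists. Their directions were counted on the deposited scale only, where 48.6% of all genes were below 0. They were not counted with each mouse rescaled to the same total, where the median of all genes was 0.13. Of 31 tested regulators, such as assembly factors, shuttle proteins and ubiquitin-activating enzymes, 18 were below 0 with a median log2 fold change of -0.02. In this list 1 gene was lower at an unadjusted p under 0.05 and none higher, compared with 1.69% and 4.42% of all genes. This was Uba6, an activating enzyme for ubiquitin, which averaged 14.9 ± 2.65 in sham controls and 11.4 ± 2.22 in stroke mice (SD, n = 6 each), with a log2 fold change of -0.37 ± 0.16 (SE, adjusted p = 0.791, limma). The MHC class I presentation list holds the transporter, its chaperones and the class I chains, and 9 of its 12 genes were below 0 with a median of -0.20, none with an unadjusted p under 0.05. H2-D1, a class I heavy chain, averaged 496 ± 135 and 391 ± 82.0, and Calr, a chaperone of the peptide-loading complex, 589 ± 236 and 403 ± 103 (SD, n = 6 each). The log2 fold changes were -0.32 ± 0.20 for H2-D1 and -0.46 ± 0.31 for Calr (SE), compared with 0.08 ± 0.11 for Tap1 and 0.02 ± 0.09 for Tap2. H2-K1, the other class I heavy chain of this list, had a log2 fold change of -0.04 ± 0.10 (SE). All 6 stroke mice lay below the sham mean of Calr. Without sham control 6, the log2 fold changes were -0.73 for Calr (unadjusted p = 0.00517, limma), -0.46 for H2-D1 (unadjusted p = 0.0195, limma) and -0.36 for Nfe2l1 (unadjusted p = 0.033, limma).

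Interferon induces the immunoproteasome subunits and PA28, so the genes of the interferon response were set beside them. Of 14 tested genes of this list, 10 were below 0 on the deposited scale, compared with 48.6% of all genes, and their median was -0.13. At an unadjusted p under 0.05, 2 were higher in stroke mice, compared with 4.42% of all genes. Mx1, an antiviral GTPase, was at 6.17, 8.39 and 9.82 in the lowest, median and highest sham control and at 8.93, 11.5 and 13.6 in stroke mice, where all 6 lay above the sham mean. Its log2 fold change was 0.43 ± 0.14 (SE, adjusted p = 0.744, limma). Ifit3, another antiviral gene, was low in both groups, at 2.20 ± 1.07 and 4.17 ± 1.89 (SD, n = 6 each), with a log2 fold change of 0.77 ± 0.32 (SE, adjusted p = 0.791, limma). Irf1, a transcription factor that acts on immunoproteasome genes, had a log2 fold change of -0.17 ± 0.18 (SE).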

How the data were processed

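Bulk RNA-seq was performed on PP B cells of 6 sham controls and 6 stroke mice, with 1 library per mouse. Per the methods and the submitters' processing notes, the authors trimmed reads with Trimmomatic 0.39, quantified transcripts with kallisto 0.48.0 on GRCm38 and tested genes with sleuth 0.30.0 in R 4.1.2. The deposited values are a signal per gene labelled as normalized TPM. Their column totals differ, so they were treated as a signal rather than as TPM, which the planned tests had assumed. The table holds no read counts, so depth and counting error could not be assessed.

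Genes that reached 1 in all 12 mice were tested on log2(value + 0.5) with limma 3.58.1 in R 4.3.3, two-sided, by group only, with Benjamini-Hochberg adjustment over 12590 genes. This scale understates changes of low genes. Immunoproteasome to constitutive ratios were tested by exact two-sided permutation over 924 assignments of the mice, where the smallest possible p is 0.0022. Each p-value sets a group difference against the spread between these mice, with 1 library per mouse. The limma script was tested on simulated data. Members, gene lists and marker lists were chosen with earlier results of these data known, so no list was tested as a whole. Genes were named with values by a rule, not always with an interval or an adjusted p. The rule took the catalytic pairs, activators and inhibitor, and the highest and lowest member of each subgroup of 3 or more genes. From outside lists came genes with an unadjusted p under 0.05, the pair with the smallest p of each, Nfe2l1, Pomp, Tap1, Tap2 and Irf1. Of the genes this rule names, and of the promoter patterns searched, 1 each is not reported here. Psmd14, Psma7 and H2-K1 are named for their role or level. Alternatives were other pseudocounts, filters, scalings, a replicate block, sample weights, an intensity trend and leaving out each mouse. Gene positions come from GENCODE M21 and promoter windows from RefSeq. The 31-base words were compared over GENCODE M21 transcripts. The gene Paaf1 of the regulator list was not used here.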

Additional observations from a re-analysis of the deposited data

Results flagged for a closer look

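In groups of 6 mice, 124 sets of values were checked for a single mouse far from the other 5, and 9 sets (7.26%) held one, where chance gives about 1 in 20. Most concern sham control 6 as the lowest mouse. In it, Psmb8 was at 111 while the other sham controls lay between 252 and 412. Psmc3 was at 53.1 with the others between 85.3 and 111, Psmd12 at 20.01 with the others between 30.1 and 36.1, and Psmd13 at 27.2 with the others between 44.2 and 58.6. Pomp was at 21.9 in sham control 6 with the others between 54.3 and 79.7.

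Stroke mouse 3 was the highest of its group for Psmd12, at 38.5 with the others between 26.2 and 30.3, and for Psmd10, at 7.37 with the others between 3.86 and 4.74. Stroke mouse 5 was the highest for Psma3, at 107 with the others between 68.4 and 80.7. The same mouse was the lowest for Psme2, at 42.0 with the others between 82.4 and 104, and the library stood apart in other measures. Its mitochondrial share of the signal, 7.49%, was the highest of all mice. Its immunoglobulin share was 2.14%, compared with 3.98% to 5.35% in the others. It was the lowest mouse for 17.8% and the highest for 18.7% of all genes. The part of these measures in the member values was not tested.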

How the results depend on the processing

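No gene of the family passed at an adjusted p under 0.05 under any of the 24 alternatives. The count of members lower at an unadjusted p under 0.05 went from 0 to 1 with median-of-ratios scaling (Psme2), to 1 with quantile normalization (Psme2), to 1 with a replicate block (Psma5), to 3 with sample quality weights and to 6 without number 6 of both groups and with a replicate block. In these fits 2.10%, 2.60%, 3.21%, 5.58% and 10.4% of all genes were lower. The count of higher members went from 0 to 1 with quantile normalization (Psmd4), compared with 3.002% of all genes. Over the mice left out in turn, lower members ranged from 0 to 10 and higher ones from 0 to 1, and the member median from -0.19 to -0.04. Over all genes, 213 were lower and 557 higher at that threshold, so 27.7% of the calls were lower, compared with 69 and 348 (16.5%) at the same total, 327 and 378 (46.4%) with quantile normalization, 703 and 866 (44.8%) with sample quality weights and 1158 and 937 (55.3%) without sham control 6. Of the 34 named genes, 23 kept their direction throughout. Log2 fold changes that turned direction are given here. With each mouse rescaled to the same total, they were 0.109 for Psme1, 0.0524 for Psme3, 0.0607 for Psmf1, 0.0199 for Psma4 and 0.064 for Psmb3. The same rescaling without immunoglobulin genes, chosen after seeing the data, gave 0.105 for Psme1, 0.0481 for Psme3, 0.0564 for Psmf1, 0.0156 for Psma4 and 0.0597 for Psmb3. Psmd10 was -0.00588 with a pseudocount of 1, -0.0253 with quantile normalization and -0.0218 with sample quality weights, and Psme1 was 0.0188 with quantile normalization. Sample quality weights gave -0.0168 for Psme4, -0.0893 for Psmg1 and -0.106 for Pomp. Leaving out number 6 of both groups with a replicate block, chosen after seeing the data, gave -0.00542 for Psmb9, -0.158 for Psmd10, -0.0714 for Psmg1 and -0.205 for Pomp. With single mice left out, the ranges were -0.0614 to 0.0466 for Psmb9, -0.14 to 0.0815 for Psme1, -0.181 to 0.0136 for Psme3, -0.0443 to 0.206 for Psme4, -0.169 to 0.0131 for Psmf1, -0.234 to 0.00549 for Psma4, -0.238 to 0.0658 for Psmb3, -0.187 to 0.139 for Psmd10, -0.112 to 0.078 for Psmg1, -0.236 to 0.131 for Pomp and -0.00686 to 0.0427 for Tap2. The cause of these reversals was not tested. The sample numbers of both groups were checked for pairing. The deviations of same-numbered mice correlated at 0.01 to 0.49, above 0.1 for 4 of 6 numbers, and 4 of 12 samples correlated best with their own number. The mean correlation was 0.22 for same-numbered mice and -0.04 for the other pairs. With a replicate block, 404 of all genes were lower and 770 higher at an unadjusted p under 0.05, compared with 213 and 557 without it. These values do not settle whether the numbers are pairs, and the main fit used none. The replicate block cannot move the ratio differences, and the exact sign-flip permutation p with it was 0.344, 0.3125 and 0.375 for Psmb8 to Psmb5, Psmb9 to Psmb6 and Psmb10 to Psmb7. Depth could not be assessed.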
